A study of Mus musculus with 16 samples.

Results

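Interferon regulatory factors, the STAT protein of their shared complex and the type I interferon receptor were followed through 16 RNA-seq libraries of mouse microglia and astrocytes. The set held 9 genes, taken by name: the receptor chains Ifnar1 and Ifnar2, the signal transducer Stat2, and the interferon regulatory factor genes Irf1, Irf2, Irf3, Irf5, Irf7 and Irf9. They were 9 of 55414 features in the microglia data and of 56980 in the astrocyte data, and all 9 passed the filter on low counts in both cell types. Each cell type had 4 groups of 2 libraries. WT had intact Rack1 and no disease model. CKO carried a conditional knockout of Rack1, which encodes a scaffold protein of the ribosome and of signalling complexes, targeted to microglia. AD WT was an Alzheimer's disease mouse model with intact Rack1, and AD CKO was that model with the microglial knockout. The astrocyte libraries carry the same group names, so the knockout named there is that of the microglia. The AD model, the Cre driver, the age and sex of the mice, the isolation of the cells, whether the astrocytes came from mice or from the coculture that the series also describes, and whether each library came from its own animal are not given in the sources used here. Both libraries of a group may therefore share a source, and p-values measure only the spread between these libraries.

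Type I interferons bind a receptor made of Ifnar1 and Ifnar2, which activates the kinases Jak1 and Tyk2 and, through them, STAT proteins such as Stat2. Phosphorylated Stat2 joins Irf9 in a complex that binds interferon-stimulated response elements and switches on antiviral and immune genes, Irf7, Stat2 and Irf9 among them. Irf3 is present in most cells and is activated by phosphorylation after nucleic acid sensing, Irf7 is made in quantity only after a first round of signalling and then amplifies it, Irf5 acts downstream of Toll-like receptors in myeloid cells, and Irf1 and Irf2 compete for the same sites, Irf1 mostly as an activator and Irf2 mostly as a repressor. In the brain microglia are a main responding cell of this pathway, and interferon-stimulated genes mark one of the microglial states described around amyloid plaques.

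Library totals were 27741882 to 33933068 counts in microglia and 29615853 to 35851170 in astrocytes, and libraries of a group correlated at 0.985 or more across genes. Rack1 was at 98.1 and 95.2 CPM (counts scaled to library size) in WT microglia, 40.4 and 42.0 in CKO, 113 and 115 in AD WT and 47.2 and 47.8 in AD CKO, so the microglia libraries went with their labels. In astrocytes Rack1 was 1.67-fold higher in CKO than in WT and was lower in AD CKO than in AD WT (54.0 against 74.8 CPM). The summed CPM of 10 microglial markers was 31471 to 53725 in microglia libraries and 540 to 1887 in astrocyte libraries, and that of 10 astrocyte markers was 9545 to 23265 in astrocyte libraries and 300.1 to 420 in microglia libraries. Oligodendrocyte markers were also high in the astrocyte libraries, at 6576 to 18703 CPM over 8 genes.

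The promoters of 5 of the genes are shown because they differ in the letters that the pathway's own factors recognise. Each line is the 250 bases before the RefSeq start site, 5′ to 3′ on the gene's strand, from GRCm38.p6. The capitals mark either of 2 motifs. The response-element core is GAAA, 2 bases of any kind and GAAA again, which Irf proteins and the complex of Stat2 and Irf9 bind. The STAT core is TTCNNNGAA, which pairs of STAT proteins bind. The intervals were chr10:128270248-128270497 (plus strand) for Stat2, chr8:46739495-46739744 (plus) for Irf2, chr11:53769764-53770013 (plus) for Irf1, chr16:91372533-91372782 (plus) for Ifnar2 and chr7:141266425-141266674 (minus) for Irf7.
Stat2: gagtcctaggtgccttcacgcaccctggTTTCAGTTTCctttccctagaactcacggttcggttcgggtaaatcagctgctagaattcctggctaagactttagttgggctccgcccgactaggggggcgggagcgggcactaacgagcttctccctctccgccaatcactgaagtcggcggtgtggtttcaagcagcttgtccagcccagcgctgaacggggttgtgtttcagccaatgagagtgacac
Irf2: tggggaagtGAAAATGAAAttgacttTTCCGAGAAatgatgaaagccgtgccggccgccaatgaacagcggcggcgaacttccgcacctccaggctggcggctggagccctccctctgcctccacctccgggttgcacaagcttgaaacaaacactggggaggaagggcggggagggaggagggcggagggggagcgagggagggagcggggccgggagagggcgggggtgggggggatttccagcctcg
Irf1: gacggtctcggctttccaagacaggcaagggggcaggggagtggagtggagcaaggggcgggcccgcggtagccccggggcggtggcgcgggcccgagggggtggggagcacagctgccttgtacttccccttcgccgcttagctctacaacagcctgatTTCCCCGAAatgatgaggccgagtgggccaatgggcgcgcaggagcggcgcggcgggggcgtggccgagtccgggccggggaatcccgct
Ifnar2: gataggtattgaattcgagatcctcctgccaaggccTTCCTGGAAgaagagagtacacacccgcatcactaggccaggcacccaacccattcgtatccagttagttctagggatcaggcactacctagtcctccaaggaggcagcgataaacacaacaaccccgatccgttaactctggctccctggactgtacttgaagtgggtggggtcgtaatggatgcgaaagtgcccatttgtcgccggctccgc
Irf7: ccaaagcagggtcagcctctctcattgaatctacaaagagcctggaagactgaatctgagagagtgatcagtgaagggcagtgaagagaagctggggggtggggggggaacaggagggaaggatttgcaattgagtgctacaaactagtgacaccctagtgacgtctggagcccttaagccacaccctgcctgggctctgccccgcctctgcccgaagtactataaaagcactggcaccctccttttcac
Over windows from 250 bases before to 50 after the start, the response-element core on either strand was found in Stat2 (first base at −222, reverse strand) and Irf2 (−241). The STAT core, which reads the same on both strands, was found in Irf1 (−90), Irf2 (−224), Ifnar1 (−5) and Ifnar2 (−214). No match overlapped another. The windows of Irf3, Irf5, Irf7 and Irf9 held neither, which says only that these letters were not in these windows. Over 32851 windows of that length, 3.44% held the response-element core and 8.3% the STAT core. Counted per gene, as for the 9 genes, the shares were 3.99% and 9.55% of 27025 genes. A stricter response element, with CT after the core, was in 0.271% of windows, in 0.303% of genes and in 0 of the 9 genes.

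In WT microglia the 9 genes spanned a wide range of levels. Per kilobase of the longest annotated transcript, Irf5 was highest at 204 ± 6.82 CPM per kb (SD, n = 2, as for all levels here), followed by Ifnar2 (86.2 ± 0.79), Irf1 (47.0 ± 0.38), Ifnar1 (33.3 ± 0.60) and Irf9 (24.8 ± 0.30). Irf2 (21.7 ± 0.26) and Irf3 (21.4 ± 3.08) overlapped, and Stat2 (9.10 ± 0.77) and Irf7 (7.02 ± 0.27) were lowest. WT astrocytes had another order: Ifnar2 (35.4 ± 1.34) and Ifnar1 (34.9 ± 0.50) overlapped at the top, then came Irf3 (21.3), Irf1 (15.7), Irf9 (9.77), Irf2 (6.24), Stat2 (5.33) and Irf7 (4.27), with Irf5 lowest at 1.57 CPM per kb. With the median annotated transcript length instead, Irf2 stood above Irf1 in WT microglia (152 against 121 CPM per kb) and Irf9 below Stat2 (41.0 against 48.2). In WT astrocytes Irf2 then stood above Irf1 (43.7 against 40.4) and Irf9 (16.1) below Irf7 (17.0), so the order below the highest genes depended on the transcript model.

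**Figure D1:**
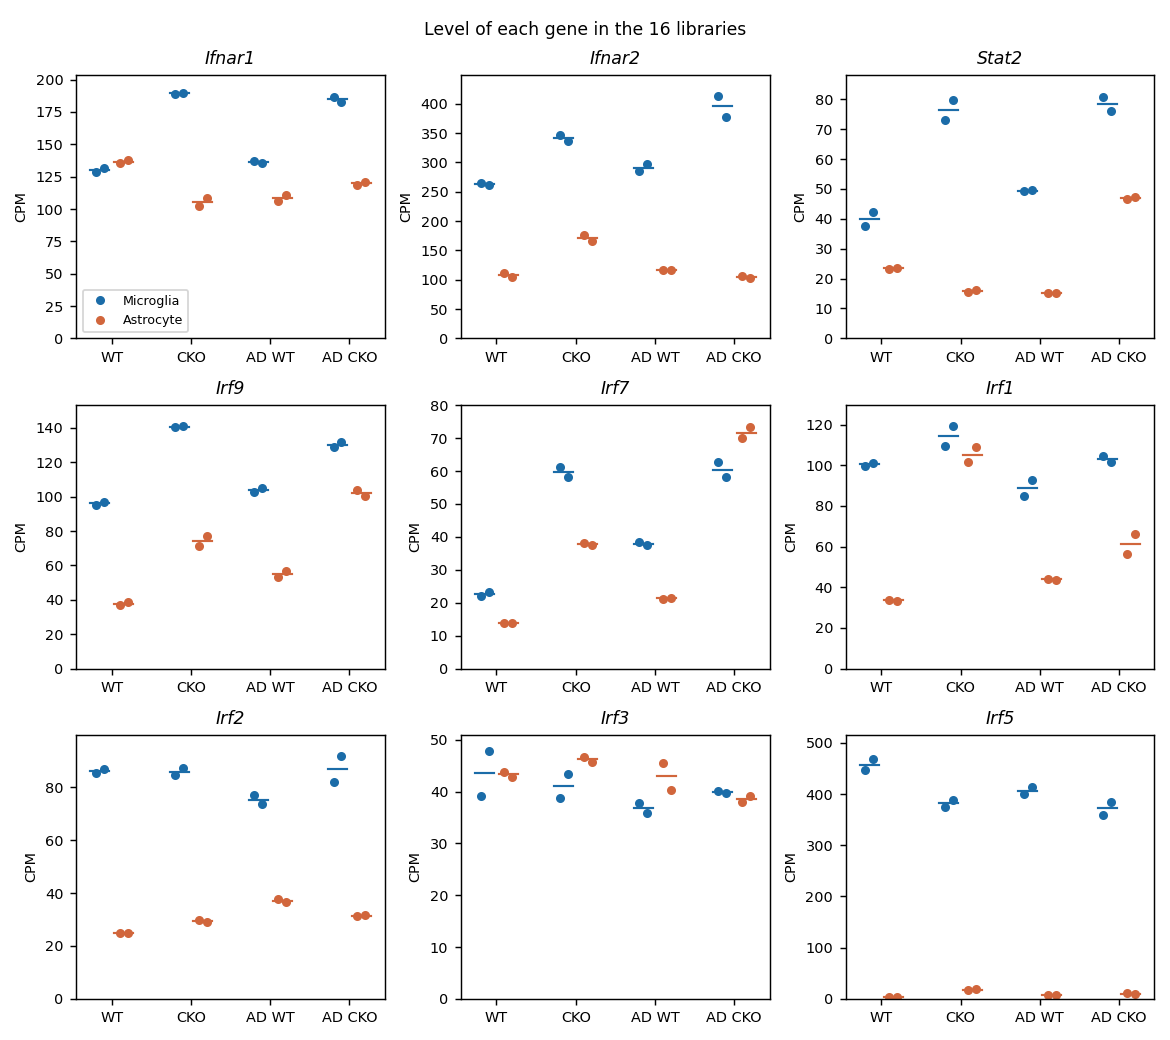
Level of each of the 9 genes in CPM (linear axis from 0, scaled within each cell type) in the 16 libraries, by group; points are libraries, horizontal bars are means of 2 libraries, blue is microglia and orange is astrocytes. In microglia Irf7 and Stat2 sit higher in both knockout groups than in WT; in astrocytes Stat2 is high only in the AD CKO libraries (46.6 and 47.4 CPM), and Irf5 stays under 20 CPM.

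With the microglial knockout alone, 6 of the 9 genes rose in microglia and 1 fell. The risers were Irf7, Stat2, Irf9, Ifnar1, Ifnar2 and Irf1, the faller was Irf5, and Irf2 and Irf3 did not pass the threshold (adjusted p under 0.05, edgeR). Among all 17318 genes tested 33.6% were called, 17.7% higher and 15.9% lower. The median log2 fold change was 0.38 over the 9 genes and 0.04 over all genes tested. The groups did not overlap for 7 of the 9 genes, and for 64.3% of all genes. In bulk libraries a change in RNA per cell and a change in the share of cells cannot be told apart.

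Both receptor chains rose. Ifnar1 was at 129 and 132 CPM in WT, 189 and 190 in CKO, 137 and 136 in AD WT and 187 and 183 in AD CKO, so all 4 knockout libraries lay above all 4 libraries with intact Rack1. Its log2 fold change was 0.54 ± 0.05 (SE) for CKO against WT (adjusted p = 5.03e-10) and 0.44 ± 0.05 for AD CKO against AD WT (adjusted p = 3.75e-08). Ifnar2 was at 264 and 261 CPM in WT, 346 and 337 in CKO, 285 and 297 in AD WT and 413 and 378 in AD CKO, again with no overlap between knockout and intact libraries. Its log2 fold changes were 0.38 ± 0.05 (adjusted p = 1.38e-07) and 0.44 ± 0.05 (adjusted p = 1.52e-08). Ifnar2 was also the only 1 of the 9 genes called between AD CKO and CKO, where it was 0.21 ± 0.05 higher (adjusted p = 0.00162). In that comparison 14.7% of all genes were called, 7.73% higher and 6.92% lower. Irf1 also passed there with the filter of at least 1 CPM in 2 libraries, where it was lower by 0.17 (−0.17).

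Stat2 and Irf9, partners in the interferon-activated complex, rose to different degrees. Stat2 was at 37.6 and 42.4 CPM in WT microglia, 73.1 and 79.7 in CKO, 49.2 and 49.7 in AD WT and 80.8 and 76.0 in AD CKO. This was a 1.91-fold rise with the knockout alone (log2 0.93 ± 0.07, adjusted p = 3.35e-11) and a 1.59-fold rise within the disease model (0.66 ± 0.07, adjusted p = 2.87e-08). Irf9 was at 95.2 and 96.8 CPM in WT, 140.3 and 141 in CKO, 103 and 105 in AD WT and 129 and 132 in AD CKO. Its rises were 1.46-fold (0.55 ± 0.05, adjusted p = 1.53e-09) and 1.25-fold (0.33 ± 0.05, adjusted p = 1.43e-05).

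Irf7, the factor that amplifies interferon signalling, had the largest fold change of the 9 genes in CKO against WT and in AD WT against WT microglia. It was at 22.1 and 23.4 CPM in WT, 61.1 and 58.2 in CKO, 38.4 and 37.6 in AD WT and 62.8 and 58.1 in AD CKO. The 4 groups thus formed 3 levels, with WT lowest, AD WT between, and both knockout groups overlapping at the top. The knockout went with a 2.62-fold rise without the disease model (log2 1.39 ± 0.08, adjusted p = 3.53e-14) and a 1.59-fold rise within it (0.67 ± 0.08, adjusted p = 5.82e-08). The knockout difference was smaller within the disease model by 0.72 ± 0.11 on the log2 scale (interaction, adjusted p = 2.52e-05). AD CKO and CKO differed by 0.02 ± 0.07 (adjusted p = 0.913).

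Irf1 and Irf2, the activator and repressor with shared sites, moved little. Irf1 was at 99.8 and 101 CPM in WT microglia and 109.7 and 119 in CKO, a log2 difference of 0.19 ± 0.06 (adjusted p = 0.0133). This call was lost without WT replicate 1 (adjusted p = 0.0627), without CKO replicate 2 (adjusted p = 0.215), in DESeq2 (adjusted p = 0.0504) and with an offset for transcript length (adjusted p = 0.109 and 0.139). Irf2 was at 85.5 and 86.9 CPM in WT and 84.5 and 87.1 in CKO, and these overlapped. Within the disease model Irf1 rose by 0.21 ± 0.06 (adjusted p = 0.00679) and Irf2 by 0.20 ± 0.06 (adjusted p = 0.0124). Neither of these rises held in every setting: that of Irf1 was lost without AD WT replicate 1 (adjusted p = 0.16) or AD CKO replicate 1 (adjusted p = 0.0869), and that of Irf2 without AD WT replicate 2 (adjusted p = 0.135) or AD CKO replicate 2 (adjusted p = 0.23).

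Irf5, the highest of the 9 genes per kilobase in WT microglia, went the other way from Irf7. It was at 446 and 468 CPM in WT, 375 and 389 in CKO, 401 and 413 in AD WT and 360.1 and 384 in AD CKO. It fell by 0.26 on the log2 scale with the knockout alone (SE 0.04, adjusted p = 2.59e-05). Within the disease model it fell by 0.13 (SE 0.04, adjusted p = 0.0249), a call lost without AD WT replicate 1 (adjusted p = 0.0687), AD WT replicate 2 (adjusted p = 0.233) or AD CKO replicate 1 (adjusted p = 0.178), and with an offset for the longest transcript (adjusted p = 0.0528). Irf3, the sensor-activated factor, was at 39.1 and 47.9 CPM in WT and 38.8 and 43.5 in CKO, with overlapping groups and a difference of −0.08 ± 0.09 (adjusted p = 0.534). Within the disease model its difference was 0.12 ± 0.09 (adjusted p = 0.353). Counting both directions, 7 of the 9 genes rose and 1 fell in AD CKO against AD WT, where 32% of all genes were called, 17% higher and 15% lower.

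The disease model with intact Rack1 went with smaller differences in microglia. Irf7 rose 1.67-fold (log2 0.74 ± 0.08, adjusted p = 5.34e-08), Stat2 by 0.305 ± 0.07 (adjusted p = 0.00329) and Ifnar2 by 0.15 ± 0.05 (adjusted p = 0.0203). Irf1 fell by 0.17, Irf2 by 0.19 and Irf5 by 0.17 (adjusted p = 0.0374, 0.028 and 0.00602). Irf3 (−0.24 ± 0.09, adjusted p = 0.0634), Irf9 (0.11 ± 0.05, adjusted p = 0.151) and Ifnar1 (0.07 ± 0.05, adjusted p = 0.4) did not pass. Irf3 passed without WT replicate 1 (−0.38, adjusted p = 0.00502) and with the offsets for transcript length (adjusted p = 0.0426 and 0.044). Against these 6 of 9, 19.3% of all genes were called (10.7% higher and 8.62% lower), 3343 in number and 2180 or 2118 when AD WT replicate 1 or 2 was left out. Of the 6, Irf7 kept its call in all 17 alternatives. Stat2 lost it without WT replicate 1 (adjusted p = 0.0792), Ifnar2 without WT replicate 2 (0.0842) or AD WT replicate 2 (0.24) or with the offsets (0.0533 and 0.0625), and Irf5 without WT replicate 2 (0.0835) or AD WT replicate 1 (0.126). Irf2 lost it without either library of either group (adjusted p from 0.0631 to 0.244), and Irf1 kept it in 9 of 17 alternatives, with an adjusted p of up to 0.411 without AD WT replicate 1.

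The interaction asked whether the knockout difference was another within the disease model than outside it. In microglia it was called for 12.7% of all genes (5.53% higher and 7.19% lower), and for Irf7 and Irf9 among the 9. Those 2202 genes became 1457 or 1385 without AD WT replicate 1 or 2, and 3952 or 3917 with the offsets. The value for Irf9 was −0.22 ± 0.07 (adjusted p = 0.0443), and it kept its call in only 2 of 16 alternatives. It was lost with either library of any group left out (adjusted p from 0.0649 to 0.18) and was −0.095 and −0.12 with the offsets for transcript length. Stat2 had −0.27 ± 0.10 (adjusted p = 0.0858), and it passed without WT replicate 2 (adjusted p = 0.0277). Irf2 had 0.21 ± 0.09 (adjusted p = 0.124), and it passed without AD CKO replicate 1 (adjusted p = 0.0372) and with the offsets (adjusted p = 0.0053 and 0.0104). Irf5 had 0.13 ± 0.06 (adjusted p = 0.183), and it passed with the offsets (0.22 in both, adjusted p = 0.0102 and 0.00931).

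**Figure D2:**
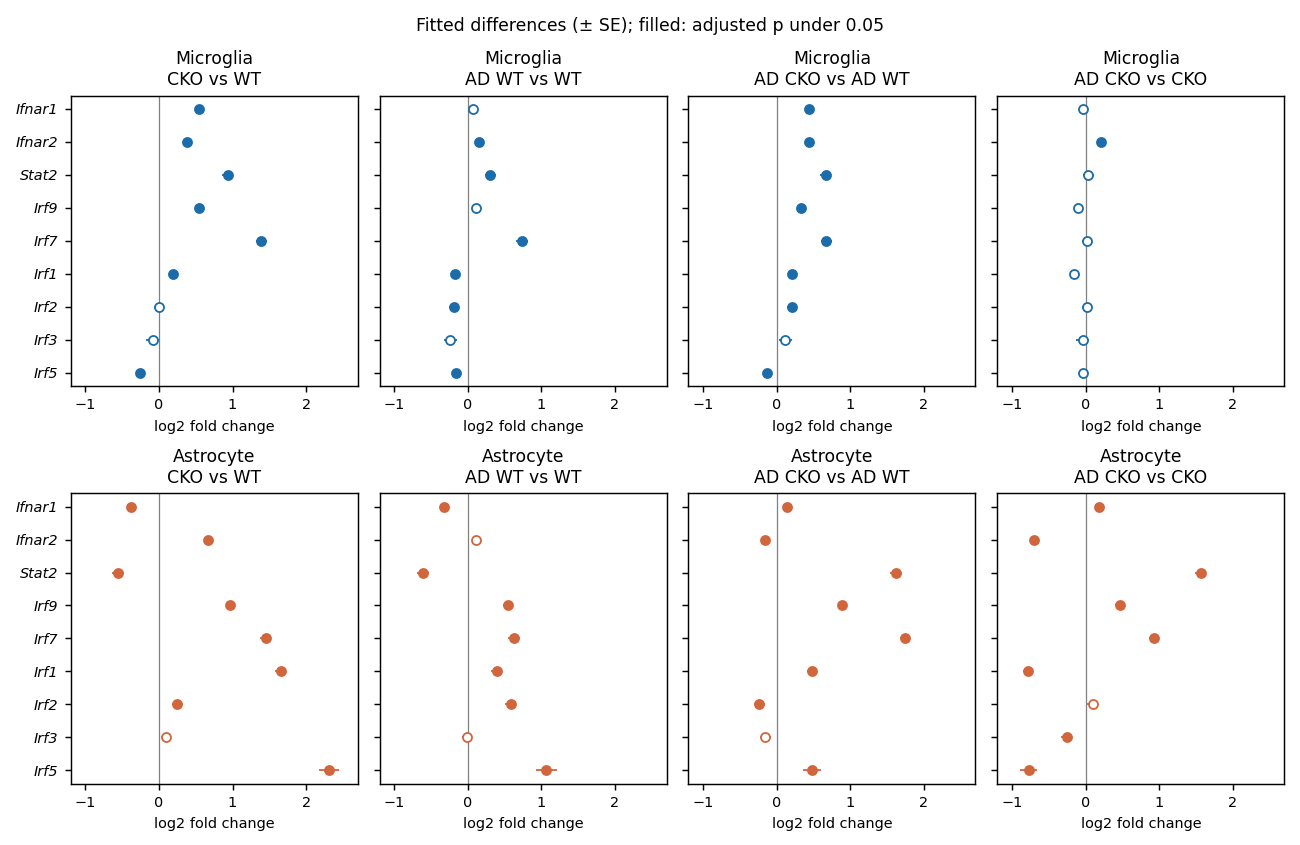
Fitted log2 fold change of each gene (horizontal axis; bars are SE, smaller than the point for most) in 4 comparisons, microglia above and astrocytes below; filled points have an adjusted p under 0.05. In microglia AD CKO against CKO only Ifnar2 is filled, at 0.21, while in astrocytes Stat2 is at −0.56 in CKO against WT and at 1.62 in AD CKO against AD WT.

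Markers of other cells moved with the microglia groups. The microglial markers fell in sum from 51476 to 53725 CPM in WT to 31471 to 32352 in CKO (8 of 10 fell), and were at 47028 to 47408 in AD WT and 34423 to 35570 in AD CKO. Oligodendrocyte markers were at 3136 to 3277 CPM in WT, 8211 to 8608 in CKO, 3736 to 3741 in AD WT and 2256 to 2308 in AD CKO, and oligodendrocyte precursor markers at 16.4 to 19.3, 38.2 to 39.8, 25.9 to 30.0 and 48.2 to 57.9. Single genes did not all follow these sums. Of 8 oligodendrocyte markers 4 rose and 2 fell in CKO against WT (median log2 0.38), and 8 fell in AD CKO against AD WT. Of 6 precursor markers 1 rose and 1 fell in AD CKO against AD WT (median −0.87). Against CKO 1 of them rose and 2 fell (median −1.57). Endothelial markers were at 327 to 330 CPM in WT and 379 to 381 in CKO. They were at 588 to 592 in AD WT and 415 in AD CKO. Of 7 endothelial genes 7 rose in AD WT against WT, and 5 fell in AD CKO against AD WT. Of 6 mural genes 6 rose in the first of these comparisons and 5 fell in the second. Of 10 astrocyte markers 7 rose and 1 fell in CKO against WT, and 8 fell in AD CKO against AD WT. Neutrophil markers were at 218 to 237 CPM in WT, 598 in CKO, 422 to 426 in AD WT and 262 to 280 in AD CKO (6 of 6 rose in CKO against WT and 6 of 6 fell in AD CKO against AD WT), and border macrophage and monocyte markers at 219 to 222, 403 to 404, 185 to 186 and 291 to 299 (5 of 7 rose in CKO against WT and 4 of 7 in AD CKO against AD WT). Markers of plasmacytoid dendritic cells, which hold high Irf7, summed to 17.8 to 19.6 CPM in WT, 15.2 to 15.7 in CKO, 44.4 to 47.5 in AD WT and 20.0 to 23.4 in AD CKO. Of these 5 markers only 3 passed the filter on low counts, and 2 were at 0 in AD CKO replicate 2. Of the 3 tested, 1 rose and 1 fell in CKO against WT. In AD WT against WT 2 rose, and in AD CKO against AD WT 2 fell. The part of any of these cells in the results was not tested.

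The rest of the pathway was read from lists of ligands, receptors, kinases, sensors, regulators and targets. The ligands were nearly absent. Of the 18 type I interferon genes none passed the filter on low counts in edgeR, so none was tested in any comparison. Ifnb1 had 40 counts over the 8 microglia libraries and 3 over the 8 astrocyte libraries. Among the kinases at the receptor, Tyk2 (0.05) and Jak2 (0.07) did not pass in microglia with the knockout alone, Jak1 fell by 0.16 and Jak3 rose by 0.41.

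In CKO against WT microglia 17.7% of all genes rose and 15.9% fell, and in AD CKO against AD WT 17% and 15%, which the following counts are read against. Upstream of the Irf factors, 8 of 15 nucleic acid sensors and adaptors rose and 3 fell in CKO against WT microglia, and 10 rose in AD CKO against AD WT. Tlr8, an endosomal RNA receptor, went from 4.72 ± 0.61 to 43.3 ± 3.81 CPM (log2 3.20, adjusted p = 3.74e-18). Of 8 kinases and adaptors that activate Irf proteins, 4 rose and 1 fell. Ikbke, a kinase of Irf3 and Irf7, went from 0.70 ± 0.27 to 14.5 ± 1.59 CPM (log2 4.36, adjusted p = 4.87e-15), and Tank, the scaffold it binds, rose by 1.38. Of 19 negative regulators 6 rose and 3 fell. Usp18, which blocks Ifnar2 signalling, rose by 1.11, and Socs3, an inhibitor of receptor-bound Janus kinases, fell by 1.38.

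Of the other Irf genes Irf4, a factor of lymphoid and some myeloid cells, fell by 1.43 in CKO against WT microglia, and Irf8, which microglia need for their identity, differed by −0.05 (adjusted p = 0.37). Of 31 interferon-stimulated targets tested, 28 rose and 2 fell in CKO against WT (median log2 1.23), and 25 rose in AD CKO against AD WT (median 0.63). In the interaction 16 of the 31 fell, with a median of −0.51, as Irf7 did. Of all genes 7.19% were called lower there and 5.53% higher.

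**Figure D3:**
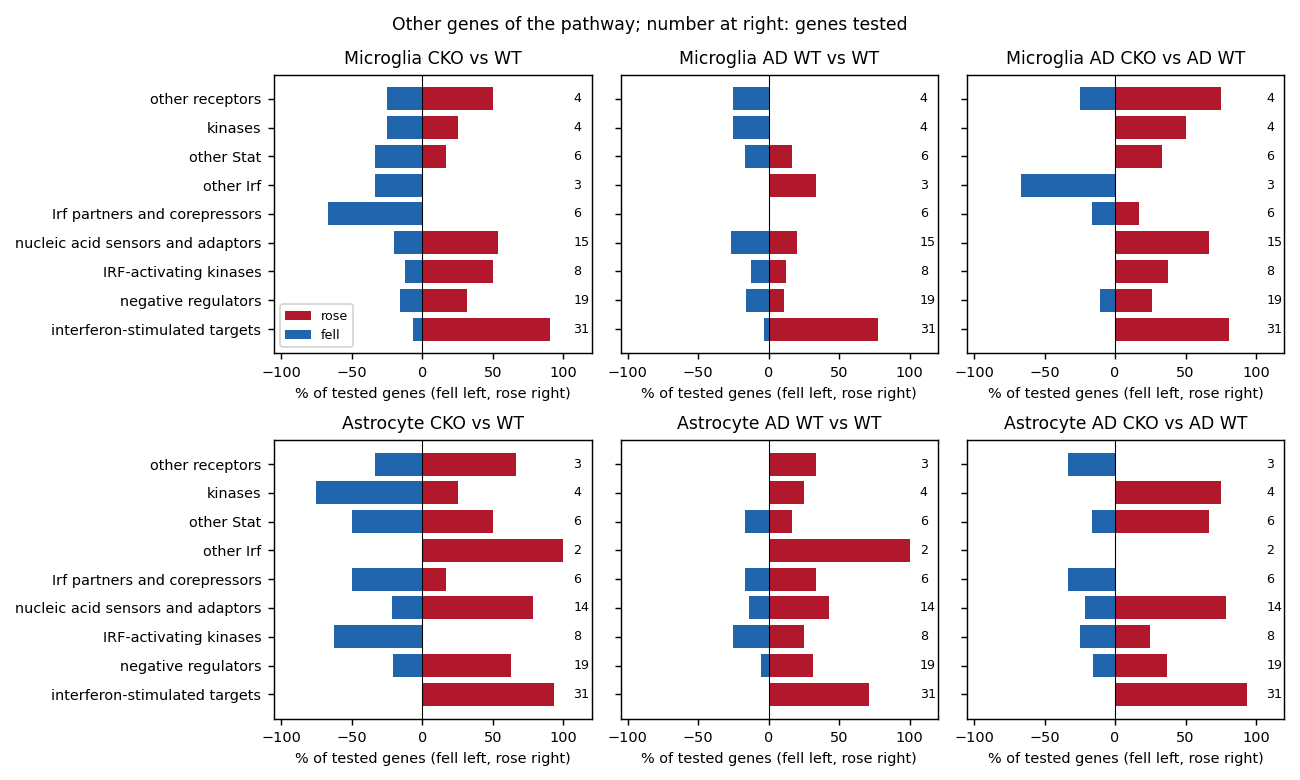
Share of each list's tested genes that rose (red, right) or fell (blue, left) in 3 comparisons, microglia above and astrocytes below; the horizontal axis is percent of tested genes and the number at the right is how many were tested. Of the interferon-stimulated targets 28 of 31 rose in microglia and 29 of 31 in astrocytes in CKO against WT, while 5 of 8 kinases and adaptors that activate Irf proteins fell in astrocytes.

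Across the 8 microglia libraries, which form 4 groups of 2, the genes whose log2 CPM followed each factor most closely by Pearson r among 10218 genes were listed as a description. For Irf7 these were Ifit3 (r = 0.9982), B2m (0.9977) and Pla2g6 (0.9955), and for Stat2 they were Il18bp (0.9968), Gbp2 (0.9967) and H2-Q7 (0.9937). Ifit3, B2m, Gbp2 and H2-Q7 are interferon-inducible genes. Ifnar1 was followed by Ifi209, Cxcl13 and Lhfpl2, Irf9 by Adam19, Gpr84 and Arhgap19, Ifnar2 by Irak2, Itgb2 and Bhlhe41, and Irf5 by Pxn, Trim17 and Scamp5. Likeness was lowest for Irf3, where the closest gene was Zfp799 (0.9571).

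In astrocytes with the microglial knockout alone, 6 of the 9 genes were higher than in WT and 2 were lower. Irf5, Irf1, Irf7, Irf9, Ifnar2 and Irf2 rose, Stat2 and Ifnar1 fell, and Irf3 did not pass. In this comparison 64% of all 20116 genes were called, 31.6% higher and 32.4% lower, so a call by itself sets a gene little apart. Astrocyte groups also differed by transcript length: the log2 level changed per doubling of transcript length by 0.09 to 0.11 in WT, −0.21 to −0.17 in CKO, −0.05 to 0.00 in AD WT and 0.10 to 0.13 in AD CKO, against −0.03 to 0.03 over all microglia libraries. Fits with an offset for the longest or the principal transcript length were added after this was seen. Astrocyte markers also moved, with sums of 22815 to 23265 CPM in WT, 9545 to 9796 in CKO, 21713 to 22446 in AD WT and 14139 to 14329 in AD CKO (9 of 10 fell in CKO against WT). Oligodendrocyte markers were at 13929 to 14080 CPM in WT, 12661 to 12988 in CKO, 6576 to 6765 in AD WT and 18567 to 18703 in AD CKO (8 of 8 fell in AD WT against WT and 8 of 8 rose in AD CKO against AD WT). Endothelial markers were at 1277 to 1306 CPM in WT, 3601 to 3719 in CKO, 1586 to 1647 in AD WT and 1840 to 1861 in AD CKO, and mural markers at 652 to 667, 1513 to 1521, 940.0 to 940.4 and 1059 to 1083. Single genes again did not all follow the sums. Of 7 endothelial markers 6 rose in CKO against WT, and 2 rose and 2 fell in AD WT against WT (median 0.01). In AD CKO against CKO 1 rose and 3 fell. Of 6 mural markers 5 rose and 1 fell in CKO against WT, and 2 rose and 4 fell in AD CKO against CKO. Of 7 border macrophage and monocyte markers 5 rose in CKO against WT and 4 in AD CKO against AD WT. Of 6 neutrophil markers 5 rose in CKO against WT, and 4 fell in AD WT against WT. Of 3 erythroid markers 3 rose in AD WT against WT, and 3 fell in AD CKO against AD WT. The part of these cells was not tested.

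Irf7 rose in every astrocyte comparison. It was at 13.8 and 13.9 CPM in WT, 38.0 and 37.6 in CKO, 21.2 and 21.5 in AD WT and 70.0 and 73.4 in AD CKO, so all 4 groups were apart. The knockout groups were 2.73-fold (log2 1.45 ± 0.08, adjusted p = 1.5e-13) and 3.35-fold (1.75 ± 0.07, adjusted p = 9.39e-15) above their controls. AD CKO lay above CKO by 0.92 ± 0.07 (adjusted p = 9.33e-11). The interaction was 0.30 ± 0.10 (adjusted p = 0.0184), and it was lost with an offset for the longest transcript (0.13, adjusted p = 0.307) and without AD CKO replicate 2 (adjusted p = 0.0676).

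Stat2 changed in opposite directions in astrocytes. It was at 23.2 and 23.6 CPM in WT, 15.6 and 16.3 in CKO, 15.3 in both AD WT libraries and 46.6 and 47.4 in AD CKO. It fell by 0.56 on the log2 scale in CKO against WT (SE 0.08, adjusted p = 3.49e-06), fell by 0.61 in AD WT against WT (adjusted p = 4.28e-06) and rose by 1.62 ± 0.08 in AD CKO against AD WT (adjusted p = 2.09e-13). The interaction of 2.18 ± 0.11 (adjusted p = 4.6e-13) was the largest among the 9 genes and was 1.82 and 1.77 with the offsets for transcript length. With those offsets the CKO fall was 0.39 and 0.36 in size (−0.39 and −0.36) and remained called. Irf9 went with Irf7 and not with Stat2 in the comparison of CKO with WT: it was at 37.0 and 38.6 CPM in WT, 71.1 and 77.1 in CKO, 53.5 and 56.7 in AD WT and 104 and 100.2 in AD CKO. Its rises were 0.97 ± 0.06 (adjusted p = 7.87e-12) and 0.89 ± 0.06 (adjusted p = 6.53e-11), with an interaction of −0.08 ± 0.09 (adjusted p = 0.44) that became −0.37 with the offset for the longest transcript (adjusted p = 0.000327).

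The receptor chains moved apart in astrocytes. Ifnar1 was at 135 and 138 CPM in WT, 102 and 108 in CKO, 106 and 111 in AD WT and 119 and 121 in AD CKO. It fell by 0.38 with the knockout alone (adjusted p = 1.57e-06), or by 0.24 and 0.20 with the offsets (−0.24 and −0.20). Its small rises in AD CKO, 0.14 against AD WT (adjusted p = 0.028) and 0.19 against CKO (adjusted p = 0.00379), changed sign with the offsets (−0.01 and −0.04, and −0.07 and −0.11). The rise against AD WT was also lost without AD WT replicate 1 (adjusted p = 0.143) or AD CKO replicate 2 (adjusted p = 0.124), and the rise against CKO without CKO replicate 1 (adjusted p = 0.0541). The interaction of Ifnar1 was 0.52 ± 0.07 (adjusted p = 3.04e-06), and 0.22 and 0.16 with the offsets (adjusted p = 0.00648 and 0.048). Ifnar2 was at 111 and 105 CPM in WT, 176 and 165 in CKO, 117 and 116 in AD WT and 106 and 103 in AD CKO, so only the CKO libraries stood above the rest. It rose by 0.66 ± 0.05 in CKO against WT (adjusted p = 2.01e-10). In AD CKO against AD WT it fell by 0.16 (adjusted p = 0.0164), a call kept in 10 of 17 alternatives (−0.23 and −0.26 with the offsets) and lost without AD WT replicate 1 (adjusted p = 0.089), AD WT replicate 2 (0.0626), AD CKO replicate 1 (0.0783) or AD CKO replicate 2 (0.143).

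Irf1 was at 33.9 and 33.1 CPM in WT astrocytes, 102 and 109 in CKO, 44.3 and 43.7 in AD WT and 56.3 and 66.1 in AD CKO. Its rise was 3.14-fold with the knockout alone (1.65 ± 0.07, adjusted p = 8.4e-15) and 1.39-fold within the disease model (0.48 ± 0.07, adjusted p = 7.09e-06), with an interaction of −1.18 ± 0.10. Irf2 was at 24.8 and 24.7 CPM in WT, 29.9 and 29.0 in CKO, 37.8 and 36.5 in AD WT and 31.3 and 31.6 in AD CKO, highest in AD WT. It rose by 0.25 ± 0.08 with the knockout alone (adjusted p = 0.00596) and fell by 0.24 within the disease model (adjusted p = 0.00808), or 0.39 and −0.40 with the offset for the longest transcript. The latter was lost without AD WT replicate 1 (adjusted p = 0.0763), without AD CKO replicate 1 (adjusted p = 0.074) and in DESeq2 (adjusted p = 0.0827). Irf3 stayed between 38.0 and 46.7 CPM in all 8 astrocyte libraries. It did not pass in CKO against WT (0.09 ± 0.07, adjusted p = 0.259) or AD WT against WT (−0.01 ± 0.07, adjusted p = 0.911), and its calls elsewhere (−0.26 in AD CKO against CKO, adjusted p = 0.00308, and −0.25 in the interaction, adjusted p = 0.0392) did not pass with the offset for the longest transcript (adjusted p = 0.128 and 0.847). The interaction call was also lost with any of the libraries left out except AD WT replicate 2 (adjusted p from 0.0572 without CKO replicate 2 to 0.286 without AD WT replicate 1). In AD CKO against AD WT Irf3 differed by −0.15 ± 0.07 (adjusted p = 0.0734), and it passed without AD WT replicate 2 (−0.23).

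Irf5 moved with the microglial markers in the astrocyte libraries. It was at 3.20 and 3.83 CPM in WT, 16.9 and 18.2 in CKO, 7.36 and 7.42 in AD WT and 10.3 and 10.2 in AD CKO. The 10 microglial markers summed to 540 to 543, 1854 to 1887, 1167 to 1178 and 1217 to 1227 CPM in the same groups, and none was at 0. Relative to the microglia libraries of the same group, the marker sum was 1.03% in WT, 5.86% in CKO, 2.48% in AD WT and 3.49% in AD CKO, and Irf5 was 0.77%, 4.60%, 1.82% and 2.76%. The part of microglial RNA in this was not tested, and the marker percent depends on the group, since the markers were lower in CKO than in WT microglia. The rise of Irf5 in CKO against WT astrocytes (4.97-fold, log2 2.31 ± 0.13, adjusted p = 7.81e-13) stood beside a rise of 9 of the 10 microglial markers with a median of 1.51. Irf8, another factor of myeloid cells, rose by 2.27 in the same comparison. For the other 8 genes the astrocyte libraries held 20.8% to 119% of the microglial level. These percentages set values scaled separately in each cell type side by side.

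**Figure D4:**
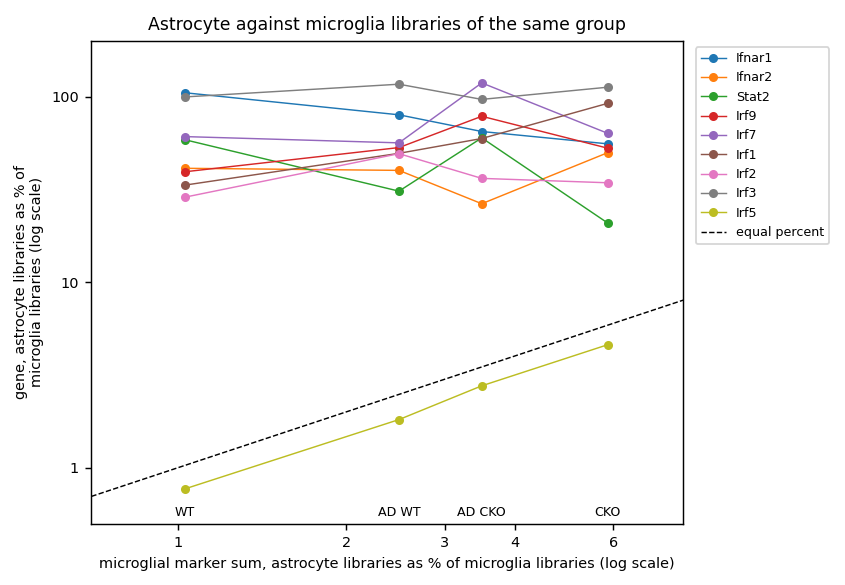
Level of each gene in astrocyte libraries as a percent of microglia libraries of the same group (vertical axis, log scale) against the same percent for the sum of 10 microglial markers (horizontal axis, log scale); points are group means of 2 libraries, joined per gene, and the dashed line marks equal percent. Irf5 lies just under the dashed line in all 4 groups, from 0.77% in WT to 4.60% in CKO, and the other 8 genes lie above 20%.

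The disease model with intact Rack1 went with 5 rises and 2 falls among the 9 genes in astrocytes, where 38% of all genes were called, 20% higher and 18% lower. Irf5 (1.07), Irf7 (0.63), Irf2 (0.58), Irf9 (0.54) and Irf1 (0.39) rose, and Stat2 and Ifnar1 (−0.33) fell. In AD CKO against AD WT 6 rose and 2 fell (52.1% of all genes, 25.1% higher and 27% lower), and in AD CKO against CKO 4 rose and 4 fell (59.8%, 31.4% and 28.4%), with Irf1 (−0.78), Irf5 (−0.77) and Ifnar2 (−0.70) lower and Stat2 higher by 1.56. The interaction was called for 8 of the 9 genes and for 57.8% of all genes, 29.5% higher and 28.3% lower.

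Around them in astrocytes, 3 of the 4 receptor kinases fell in CKO against WT: Jak1 (−0.62), Jak2 (−0.71) and Tyk2 (−0.48). Jak3 rose in that comparison, where 32.4% of all genes were lower and 31.6% higher. In AD CKO against AD WT 3 of the 4 kinases rose and 0 fell, Tyk2 rising by 0.62, where 25.1% of all genes were higher. Ifngr2 and Il10rb, receptor chains for interferon gamma and for the interleukin-10 and interferon lambda families, rose by 0.72 and 0.73 in CKO, and Ifngr1 fell by 0.17. Of 31 interferon-stimulated targets, 29 rose in CKO against WT (median 1.49, with 31.6% of all genes higher) and 29 in AD CKO against AD WT (median 1.22, with 25.1% higher), among them the chemokine gene Cxcl10, at 3.91 ± 0.67 CPM in WT, 56.0 ± 3.11 in CKO, 8.90 ± 1.13 in AD WT and 103 ± 1.96 in AD CKO. Tlr3, the receptor for double-stranded RNA, fell by 1.45 in CKO, and Sting1, an adaptor for DNA sensing, rose by 1.58. Of 8 kinases and adaptors that activate Irf proteins 5 fell in CKO, Tbk1 by 0.45 and Ikbke by 1.17, where 32.4% of all genes were lower and 64% were called. The values in this paragraph carry no offset for transcript length, by which the astrocyte groups differed.

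Set side by side in the WT groups, all 9 genes were called higher in microglia than in astrocytes in a fit over all 16 libraries, where 39.5% of genes were called higher, 39.4% lower and 79% in either direction. The difference ran from 7.39 ± 0.08 on the log2 scale for Irf5 to 0.38 ± 0.09 for Irf3 and 0.31 ± 0.05 for Ifnar1, with Irf2 (2.18), Irf1 (1.96), Irf9 (1.72) and Ifnar2 (1.66) between. For Irf3 and Ifnar1 the direction rested on the scaling. Scaled by total counts alone, Ifnar1 was at 131 and 132 CPM in microglia and 128 and 131 in astrocytes, and Irf3 at 39.8 and 48.0 and at 41.6 and 40.7, which overlapped. Scaled within each cell type, Ifnar1 was higher in astrocytes (137 ± 1.95 against 130.3 ± 2.34 CPM).

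The knockout difference was itself compared between the cell types. Without the disease model, that of Stat2 was larger in microglia by 1.46 ± 0.11 (adjusted p = 9.34e-12) and that of Ifnar1 by 0.88 ± 0.07, and those of Irf5 (−2.60), Irf1 (−1.50), Irf9 (−0.45), Ifnar2 (−0.31) and Irf2 (−0.29) were smaller in microglia. The call for Irf2 was lost without microglia CKO replicate 1 (adjusted p = 0.0529) or astrocyte CKO replicate 1 (adjusted p = 0.0559). The 7 calls compare with 46.9% of all genes, 24.7% higher and 22.2% lower. For Irf7 the difference between cell types was −0.09 ± 0.11 (adjusted p = 0.537), changed sign to 0.05 with the offset for the principal transcript. The difference of AD WT from WT was called apart between the cell types for 6 of the 9 genes and for 23.6% of all genes (12.1% higher and 11.5% lower), with Stat2 at 0.92 ± 0.11 and Irf5 at −1.24 ± 0.12. Within the disease model Irf7 rose less in microglia than in astrocytes, by −1.11 ± 0.10 (adjusted p = 1.6e-09), as did Stat2 (−0.99 ± 0.11) and Irf9 (−0.60 ± 0.08), and 35% of all genes were called, 15.7% higher and 19.3% lower.

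Exons of 6 of the 9 genes overlap those of another gene, and the use of strand in counting is not given in the sources used here. In GENCODE M21 on mm10, Irf7 (chr7:141262706-141266481, minus strand) shares 45 exon bases with Phrf1 on the other strand, and Phrf1 differed by 0.09 (adjusted p = 0.251) in CKO against WT microglia and fell by 0.87 in astrocytes, where Irf7 rose. Irf9 (chr14:55603571-55610030, plus) shares 123 bases with Rnf31 on the same strand, which rose by 0.22 in microglia and fell by 0.40 in astrocytes. Irf5 (chr6:29526625-29541871, plus) shares 411 bases with Tnpo3 on the other strand, which differed by −0.04 (adjusted p = 0.718) in microglia and fell by 0.69 in astrocytes. In AD CKO against AD WT astrocytes these partners rose, Phrf1 by 0.59, Rnf31 by 0.58 and Tnpo3 by 0.37, as Irf7, Irf9 and Irf5 did, and Gm17334 rose by 0.74 beside Irf1. In AD CKO against AD WT microglia Rnf31 rose by 0.28. The part of partner reads in the results was not tested. Irf1 (chr11:53770014-53778374, plus) shares 135 bases with Gm17334, Irf3 (chr7:44997648-45002848, plus) 88 with Bcl2l12, and Ifnar2 (chr16:91372783-91405589, plus) 315 with Gm21970. Gm21970, on the same strand as Ifnar2, was at 0.07 CPM in WT microglia and 0 in WT astrocytes, and was not tested. Stat2 (chr10:128270559-128292849, plus), Ifnar1 (chr16:91485238-91507441, plus) and Irf2 (chr8:46739732-46847458, plus) share no exon bases with another gene there.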

How the data were processed

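RNA from 8 microglia and 8 astrocyte libraries had been extracted with TRIzol, amplified with a low-input SMART-Seq kit from 10 ng and read as pairs of 150 bases, per the labels' protocols. The submitters' processing notes name fastp, HISAT2, StringTie and mm10, with no versions. The authors deposited 1 table of estimated counts per cell type, in which 27 to 33.6% of values above 0 were not whole, and these were rounded. Rows without a gene name (1401 and 1542) stayed in the fits and were left out only where genes were looked up by name. Totals of 27741882 to 35851170 counts per library set the counting precision.

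Genes were tested with edgeR 4.0.16 in R 4.3.3 (quasi-likelihood test, robust, TMM scaling, default filter on low counts), in 1 fit per cell type over its 8 libraries and 1 over all 16 libraries for the 55405 features of both tables. Benjamini-Hochberg adjustment ran over all genes tested in a comparison, and a call is an adjusted p under 0.05. Comparisons that share controls are given side by side. CPM values are scaled within a cell type's table, and levels set across tables carry that limit. Per-gene levels use GENCODE M21 lengths, promoters RefSeq (GRCm38.p6), in which all 9 genes matched, Irf1 and Irf9 with 2 windows each. Alternatives were DESeq2 1.42.0, limma-voom 3.58.1, other size factors, other filters, each library left out, only the compared groups, a replicate block and, chosen after seeing the data, the offsets for transcript length. On simulated counts 94.3% of genes changed by 2 on the log2 scale were recovered for CKO against WT in microglia, 97.6% in astrocytes and 86% for their difference, and of genes changed by 1 it was 79.4%, 74.5% and 63.2%.

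The 9 genes and all lists were chosen with earlier results of these data known. The rule for named genes took the 9 genes and Rack1, up to 3 called genes of smallest p per list and comparison, lists of up to 4 genes whole, and the 3 genes with the highest r for each of the 9 (mean of at least 5 CPM, prior count 2).
Some genes of the lists are not reported here by name.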

Additional observations from a re-analysis of the deposited data

Results flagged for a closer look

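Differences of differences are listed here with their log2 value and edgeR's adjusted p. Within a cell type the knockout difference in the disease model was compared with that outside it. In microglia the 2 values differed for Irf7 (−0.7198, adjusted p = 2.52e-05) and Irf9 (−0.2225, adjusted p = 0.0443). There 12.7% of all genes were called, and Irf9 kept its call in only 2 of 16 alternatives. In astrocytes they differed for Irf1 (−1.175, adjusted p = 1.68e-09), Irf2 (−0.4892, adjusted p = 0.00035), Irf3 (−0.2476, adjusted p = 0.0392), Irf5 (−1.8375, adjusted p = 1.43e-08), Irf7 (0.2958, adjusted p = 0.0184), Stat2 (2.1764, adjusted p = 4.6e-13), Ifnar1 (0.516, adjusted p = 3.04e-06) and Ifnar2 (−0.817, adjusted p = 3.33e-09). The astrocyte interaction was called for 57.8% of all genes. Irf3 kept its call in 4 of 16 alternatives, and its value was 0.0254 with the offset for the longest transcript. Irf7 kept its call in 14 of 16.

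Between the cell types each value is the microglial difference minus the astrocyte difference. For CKO against WT it was past the threshold for Irf1 (−1.4972, adjusted p = 3.72e-13), Irf2 (−0.291, adjusted p = 0.0147), Irf5 (−2.6037, adjusted p = 6.55e-18), Irf9 (−0.4547, adjusted p = 3.21e-05), Stat2 (1.4569, adjusted p = 9.34e-12), Ifnar1 (0.8806, adjusted p = 2.83e-11) and Ifnar2 (−0.3141, adjusted p = 0.000689), where 46.9% of all genes were called. For AD WT against WT it was so for Irf1 (−0.5725, adjusted p = 9.53e-05), Irf2 (−0.7822, adjusted p = 4.36e-07), Irf5 (−1.2356, adjusted p = 3.09e-09), Irf9 (−0.4362, adjusted p = 0.00022), Stat2 (0.9155, adjusted p = 4.3e-07) and Ifnar1 (0.3902, adjusted p = 0.000152), where 23.6% of all genes were called. For AD CKO against AD WT it was so for Irf1 (−0.3049, adjusted p = 0.0161), Irf2 (0.405, adjusted p = 0.00117), Irf5 (−0.6427, adjusted p = 5.72e-06), Irf7 (−1.1124, adjusted p = 1.6e-09), Irf9 (−0.5988, adjusted p = 7.6e-07), Stat2 (−0.9922, adjusted p = 2.74e-08), Ifnar1 (0.2605, adjusted p = 0.00479) and Ifnar2 (0.5586, adjusted p = 5.67e-07), where 35% of all genes were called. In this last comparison the call for Irf1 was lost without microglia AD WT replicate 2 (adjusted p = 0.103), microglia AD CKO replicate 2 (0.0506) or astrocyte AD CKO replicate 2 (0.177), and with the offset for the principal transcript (0.053). Irf3 passed without microglia WT replicate 1 for CKO against WT (−0.34) and for AD WT against WT (−0.37).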

How the results depend on the processing

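Of 2376 alternative values for the 9 genes, 2247 (94.6%) kept direction and side of the threshold, 80 lost a call, 19 gained one and 30 changed sign. All 1018 alternatives of the 52 called results with a log2 size of at least 0.5 kept both. With 2 libraries per group, leaving 1 out assumes that the lone library varies like the other groups, and small calls depend on single libraries.

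The sign changes were of values near 0 or with an offset for length, and the cause was not tested. Ranges are over each library left out. In microglia AD CKO against CKO, Irf2 was −4e-04 with the 1 CPM filter and ranged from −0.0631 (without AD CKO replicate 2) to 0.1202, Stat2 from −7e-04 (CKO replicate 1) to 0.0959, Irf3 from −0.0992 to 0.0398 (CKO replicate 2), Irf7 from −0.0197 (CKO replicate 2; −0.013 without AD CKO replicate 1) to 0.0781 and Irf5 from −0.082 to 0.0341 (AD CKO replicate 1). With the offsets (longest, principal) Irf3 was 0.0329 and 0.037, Irf5 0.04 and 0.0453 and Ifnar1 0.0499 and 0.0536. In CKO against WT, Irf2 ranged from −0.0321 to 0.0073 and Irf3 from −0.2227 to 0.0741 (both positive without WT replicate 2). In the microglia interaction Irf1 ranged from −0.0377 (AD WT replicate 1; −0.0254 without CKO replicate 1) to 0.0872, and Ifnar1 was 0.0288 and 0.0392 with the offsets. In astrocytes Irf3 ranged from −0.1112 to 0.0625 (AD WT replicate 2) for AD WT against WT, and was −0.1331 and −0.0658 for CKO against WT with the offsets and 0.0254 for the interaction with the longest. Ifnar1 was −0.0139 and −0.039 for AD CKO against AD WT and −0.068 and −0.1091 against CKO, and Irf2 was −0.1655 against CKO with the longest. Between cell types Ifnar2 ranged from −0.0042 (astrocyte WT replicate 1) to 0.075 for AD WT against WT, and Irf7 was 0.0498 for CKO against WT with the principal transcript.

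With each library left out, AD WT against WT called 2118 to 3355 genes in microglia (3343 with all), and the interaction 1385 to 1968 (2202). The interaction called 3952 and 3917 with the offsets. The longer response-element motif was in 0 of 9 genes instead of 2. Same-numbered libraries correlated at −0.03 to 0.048 in their deviations, so no pairing by number was seen across genes as a whole. A pairing limited to some genes was not tested. With the replicate block 6142 genes were called for CKO against WT in microglia (5815 without). The block gave a call to Irf3 (AD WT against WT) and Irf1 (AD CKO against CKO) in microglia and to Ifnar2 (AD WT against WT) and Irf3 (AD CKO against AD WT) in astrocytes, and among the 9 genes it ended none.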
